A study of Mus musculus with 12 samples.

Results

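Phlda1, amphiregulin and the feedback of the EGF receptor were followed through 8 genes in liver and lung of mice fed a Se-deficient or a Se-adequate diet. The genes were taken by name: the ligands Areg, Ereg and Hbegf, the receptor gene Egfr, and the inhibitors Phlda1, Spry2, Spry4 and Dusp6. Every probe set of the Affymetrix mouse genome array that the annotation gave to a single one of these genes was used, and for Areg a probe set that named it together with a second gene would also have been taken. This gave 13 probe sets of 6 genes, of 29409 probe sets and 13711 genes in the series. Areg and Ereg had 0 annotated probe sets and 0 probe sets named Areg with a second gene, so neither gene was analysed here and no value is given for amphiregulin by name. The annotation used leaves 4293 probe sets without a gene, and whether any of them reads Areg or Ereg was not determined. The genes had been proposed from the difference between diets in lung, where Phlda1 was among the few genes lower in Se-adequate mice. Since the group was chosen by its lung diet values, those values are a description, with no test, while the diet comparison in liver rests on arrays that the choice did not use. The comparisons of lung with liver include the lung arrays of the choice, so for Phlda1 they too are a description, with no test.

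Male FVB/N mice received, from weaning and for 6 weeks, a Se-deficient base diet with 0.1 ppm Se added as sodium selenite (0.1 Se, Se-adequate) or with 0 ppm added (0 Se, Se-deficient). The labels name no other treatment and no altered gene. Total RNA of lung and liver was hybridized to 12 arrays, in 4 groups of 3 biological replicates: 0.1 Se lung, 0 Se lung, 0.1 Se liver and 0 Se liver. The sources used here do not say whether the liver and lung arrays of the same number came from 1 mouse.

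Ligands such as amphiregulin, epiregulin and heparin-binding EGF-like growth factor are made as membrane-bound precursors, shed by metalloproteases and bound by the EGF receptor, which then signals through RAS and the kinases MEK and ERK. Active ERK switches on immediate early genes and also the genes of its own inhibitors: Sprouty proteins, which restrain RAS activation, Dusp6, a phosphatase of ERK, and Phlda1, a pleckstrin homology-like protein reported in human cells to hold back ERBB receptor signalling. Transcripts of ligands and inhibitors are for this reason often read as a trace of recent receptor activity. In liver the EGF receptor is abundant on hepatocytes, and in lung it is carried by airway and alveolar epithelium.

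Each array listed 22197 to 22718 probe sets in lung and 17235 to 17923 in liver. Values are log2 MAS5 signals, from 6.64 (a signal of 100) upwards, and a blank cell stands for an absent call or a signal under 100. Hepatocyte markers summed to signals of 345203 to 371886 in 0.1 Se liver and 301060 to 372515 in 0 Se liver. In lung, 6 of the 7 listed hepatocyte markers were blank on all arrays of both diets. The 6 listed alveolar type 2 markers summed to 86458 to 128282 in 0.1 Se lung and 109242 to 130552 in 0 Se lung, and to 4002 to 4376 in 0.1 Se liver and 4008 to 4391 in 0 Se liver, where Sftpa1 and Sftpb were blank on every array and Sftpc and Napsa on those of 0 Se.

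To show the start regions of 3 genes that differed between the tissues and had an entry, the 250 bases before the annotated gene start are printed below for Egfr, Spry2 and Dusp6 as RefSeq gives them in GRCm38.p6, with capitals where a searched motif lies. The Egfr stretch is chr11:16751953-16752202 on the plus strand, that of Spry2 is chr14:105896820-105897069 on the minus strand, and that of Dusp6 is chr10:99262981-99263230 on the plus strand.
Egfr: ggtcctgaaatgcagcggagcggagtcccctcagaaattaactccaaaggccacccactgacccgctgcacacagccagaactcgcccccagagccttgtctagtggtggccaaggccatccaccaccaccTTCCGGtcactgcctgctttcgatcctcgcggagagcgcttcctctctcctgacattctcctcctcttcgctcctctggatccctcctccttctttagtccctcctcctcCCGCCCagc
Spry2: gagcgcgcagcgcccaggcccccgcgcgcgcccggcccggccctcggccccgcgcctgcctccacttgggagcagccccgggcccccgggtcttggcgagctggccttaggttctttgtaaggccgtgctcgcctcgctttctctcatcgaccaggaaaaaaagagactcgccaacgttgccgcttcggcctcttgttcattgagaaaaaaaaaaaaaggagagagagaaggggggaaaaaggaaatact
Dusp6: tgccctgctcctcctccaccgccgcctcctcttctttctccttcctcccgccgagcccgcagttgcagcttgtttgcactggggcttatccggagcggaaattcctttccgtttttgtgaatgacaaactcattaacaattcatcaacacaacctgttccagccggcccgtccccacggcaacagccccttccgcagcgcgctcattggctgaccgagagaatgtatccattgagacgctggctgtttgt
The searched motifs were TATAAA (the TATA box), GGGCGG (the core bound by Sp1) and CCGGAA (the core bound by ETS factors), on both strands, and none of them overlaps another. The Egfr stretch holds CCGGAA on the other strand at 119 bases before the start and GGGCGG on the other strand at 9 bases before it. Spry2 and Dusp6 hold 0 of the 3 motifs in these letters. Over 32851 RefSeq promoters of the same length, 12.4% hold TATAAA, 32.7% hold GGGCGG and 3952 of them hold CCGGAA. The GC content was 60.8% for Egfr, 62.4% for Spry2 and 56.4% for Dusp6, against a median of 52.4% over all promoters. Matches of so few letters are a description of the sequence. Phlda1, Ereg, Hbegf and Spry4 had no entry in the promoter table used.

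**Figure D1:**
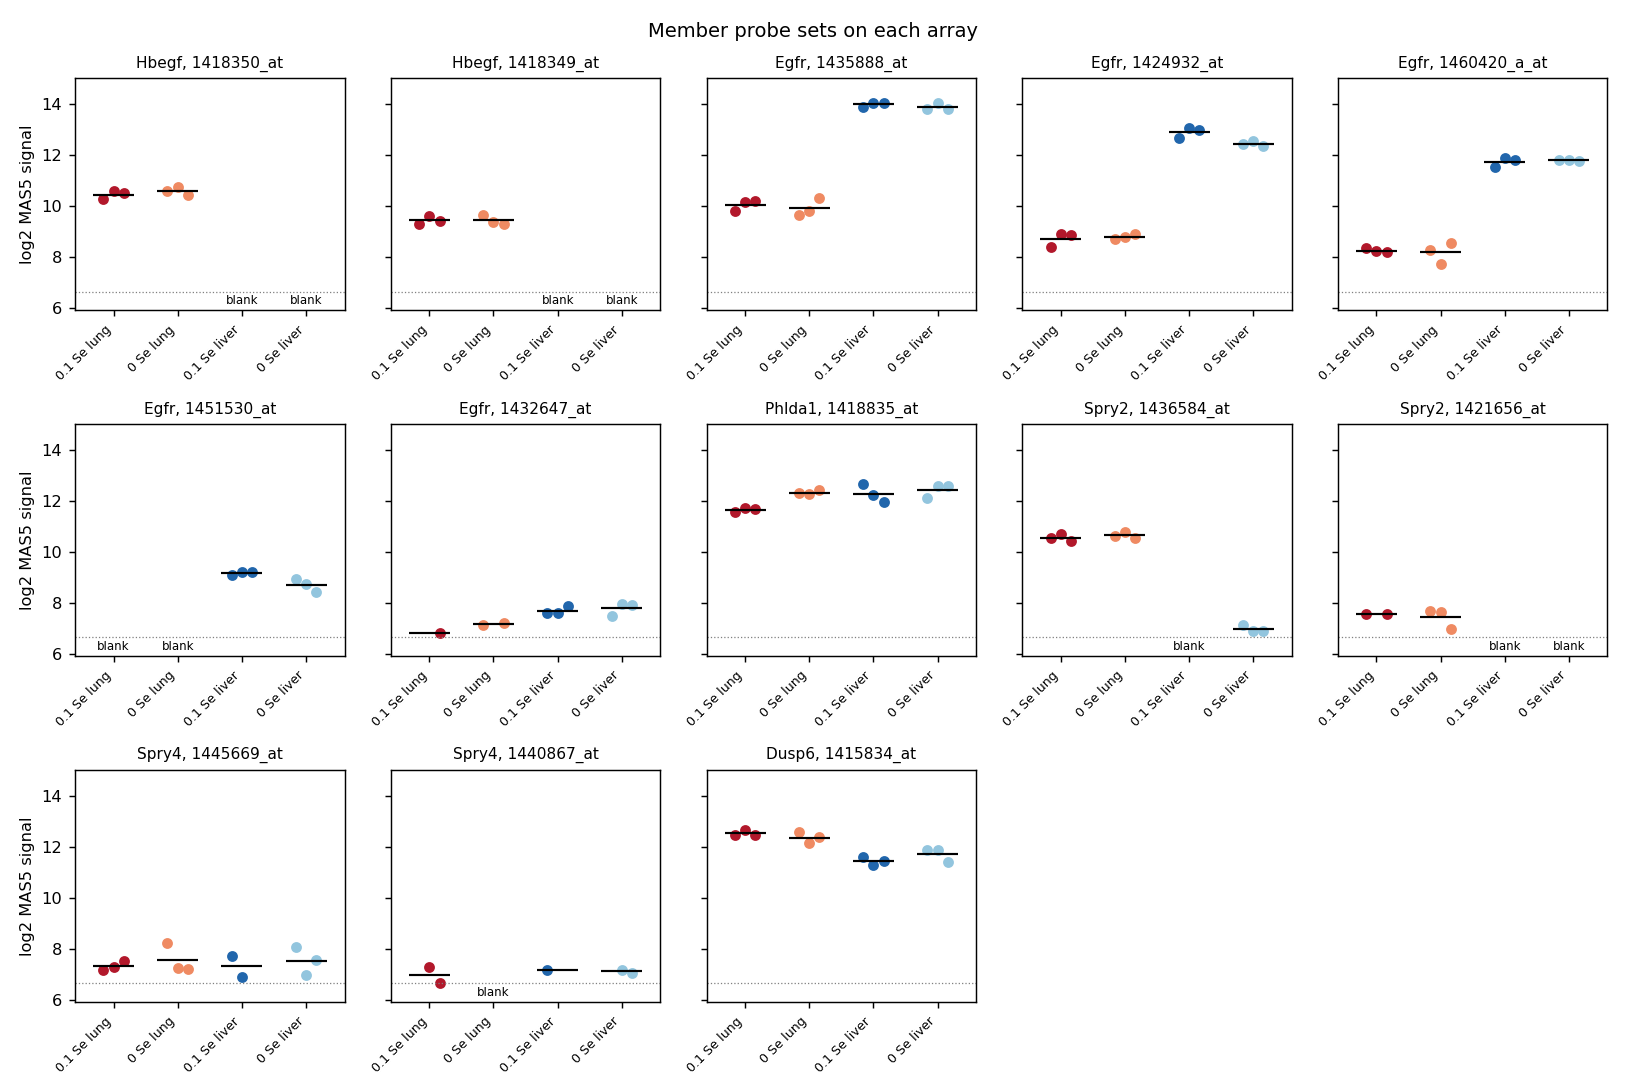
Log2 MAS5 signal (vertical axis) of the 13 probe sets of Hbegf, Egfr, Phlda1, Spry2, Spry4 and Dusp6 on each array, 1 panel a probe set, with 1 point an array, a bar at the group mean, the word blank where a group has 0 listed values, and a dotted line at the lowest listed value of 6.64. Phlda1 has its 3 lowest points in 0.1 Se lung, the 3 leading Egfr probe sets lie far lower in lung than in liver, and Hbegf is listed in lung only.

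Hbegf, the precursor of heparin-binding EGF-like growth factor and the only ligand of the 3 with an annotated probe set, was listed on all lung arrays and on 0 of 6 liver arrays. Its probe set 1418350_at read 10.25, 10.58 and 10.51 in 0.1 Se lung, against 10.57, 10.72 and 10.41 in 0 Se lung. The second probe set, 1418349_at, read 9.31, 9.60 and 9.40 in 0.1 Se lung, against 9.65, 9.36 and 9.30 in 0 Se lung. The diets overlapped for both, and the differences (0.1 Se minus 0 Se) were -0.12 and 0.00 on the log2 scale. No fold change between the tissues is given for Hbegf, because its level in liver is known only as blank. In bulk RNA, fewer cells of a type and less RNA per cell cannot be told apart.

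Egfr, which encodes the receptor itself, had the largest tissue difference of the member genes compared, with the higher level in liver. It was read by 5 probe sets. The brightest probe set, 1435888_at, read 9.79, 10.15 and 10.20 in 0.1 Se lung, against 13.89, 14.02 and 14.04 in 0.1 Se liver. On the Se-deficient diet it read 9.66, 9.80 and 10.31 in 0 Se lung, against 13.78, 14.02 and 13.82 in 0 Se liver. Every lung array lay below every liver array. Lung minus liver was -3.93 ± 0.13 (SE, n = 3 per tissue) in 0.1 Se mice, 15.3-fold lower in lung (limma with Benjamini-Hochberg adjustment over all probe sets, adjusted p = 1.28e-09). In 0 Se mice it was -3.95 ± 0.15, 15.5-fold lower (limma adjusted p = 1.14e-09).

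A further pair of Egfr probe sets gave the same direction between the tissues. For 1424932_at the signal was 8.39, 8.91 and 8.84 in 0.1 Se lung, against 12.65, 13.07 and 12.96 in 0.1 Se liver, and 8.72, 8.76 and 8.89 in 0 Se lung, against 12.44, 12.55 and 12.36 in 0 Se liver. It was 18.1-fold lower in lung on 0.1 Se and 12.6-fold lower on 0 Se (limma adjusted p = 4.66e-09 and 8.37e-11). For 1460420_a_at the lung was 11.2-fold lower on 0.1 Se and 12.2-fold lower on 0 Se (limma adjusted p = 4.41e-09 and 9.64e-09). The probe set 1451530_at was blank on every lung array and listed on every liver array. The dimmest, 1432647_at, was listed on 1 of the 3 arrays of 0.1 Se lung (6.80) and 2 of 3 in 0 Se lung (7.14 and 7.19), against 7.49, 7.95 and 7.90 in 0 Se liver, where it could be tested and was 1.54-fold lower in lung (limma adjusted p = 0.0176).

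In lung the Egfr arrays of both diets lay in the same range. The differences (0.1 Se minus 0 Se) of the probe sets 1435888_at, 1424932_at and 1460420_a_at were 0.13, -0.08 and 0.07, and the diets overlapped for each. In liver the probe sets differed among themselves. For 1424932_at the Se-adequate arrays of 12.65, 13.07 and 12.96 all lay above the Se-deficient ones of 12.44, 12.55 and 12.36, a difference of 0.44 ± 0.12 (95% interval 0.19 to 0.70, n = 3 per diet). The probe set 1451530_at read 9.10, 9.20 and 9.19 in 0.1 Se liver, against 8.93, 8.75 and 8.44 in 0 Se liver, again without overlap, a difference of 0.46 ± 0.17 (95% interval 0.09 to 0.83). Neither passed the test over all probe sets (limma adjusted p = 0.519 and 0.664, unadjusted p = 0.00323 and 0.0205), and 4.99% of all probe sets listed on the 6 liver arrays stood higher in 0.1 Se liver without overlap. The brightest Egfr probe set differed by 0.11 ± 0.09 in liver (limma adjusted p = 0.875), 1460420_a_at by -0.05 ± 0.11 (limma adjusted p = 0.956) and 1432647_at by -0.10 ± 0.20 (limma adjusted p = 0.951). Their intervals reached 0.32, 0.20 and 0.34 at the upper end, so 3 of the 5 probe sets gave no diet difference beyond their error and 2 lay higher with a call that did not survive adjustment.

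Phlda1 was read by 1 probe set, 1418835_at, and its lung values separated the diets completely. It read 11.55, 11.73 and 11.68 in 0.1 Se lung, against 12.29, 12.26 and 12.40 in 0 Se lung. The highest Se-adequate array (11.73) lay below the lowest Se-deficient one (12.26). Such separation was not rare, since 6.86% of 20062 probe sets lay lower in 0.1 Se lung without overlap. The Phlda1 mean was 11.65 ± 0.09 in 0.1 Se lung and 12.32 ± 0.08 in 0 Se lung (SD, n = 3 each), a difference of -0.66 ± 0.09 (SE), 1.58-fold lower in Se-adequate lung. This is the value by which the gene was chosen and it carries no test. As the rule fixed, it was the 1 probe set of the 10 compared in lung past the adjusted threshold of 0.05, and nothing is read from this count, which stands over a background of 0.0924% of 21655 probe sets called in either direction and 0.0185% called lower. The 4 probe sets called lower were Phlda1, Ptgs2 (-0.82 ± 0.12), Fam216b (-1.18 ± 0.17) and 1 to which the annotation gives no gene (-1.36 ± 0.18). Over the alternative settings the Phlda1 difference lay between -0.70 and -0.61. Settings of the filter, the blanks, the variance model or the test cannot move a difference of means for a probe set listed on every lung array. The range therefore comes from the scaling, the pseudocount, the array weights and the left-out arrays.

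In liver Phlda1 read 12.65, 12.24 and 11.96 with 0.1 Se, against 12.09, 12.59 and 12.59 with 0 Se. The diets overlapped, and the difference was -0.14 ± 0.18 (95% interval -0.54 to 0.26, limma adjusted p = 0.917). The spread within a diet was wider in liver than in lung, with an SD of 0.35 in 0.1 Se liver and 0.29 in 0 Se liver. Whether the response to diet differed between the tissues was not tested, since the lung values had chosen the gene. Ordered by group mean, Phlda1 stood at 12.42 in 0 Se liver, 12.32 in 0 Se lung, 12.28 in 0.1 Se liver and 11.65 in 0.1 Se lung. The first 3 of these overlapped one another, and only 0.1 Se lung lay below all other arrays.

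On the deposited scale Phlda1 was 1.55-fold lower in 0.1 Se lung than in 0.1 Se liver (lung minus liver -0.63 ± 0.16, SE), and in 0 Se mice lung minus liver was -0.10 ± 0.13. Both values share their lung arrays with the diet difference that chose the gene. These tissue values depended on how the arrays were scaled. The median probe set was 0.20 higher in lung than in liver on 0.1 Se and 0.19 higher on 0 Se, and quantile normalization moved these medians to 0.46 and 0.44. With it the Phlda1 difference became -0.04 on 0.1 Se and turned to 0.59 on 0 Se. Relative to the median of all probe sets it was -0.83 on 0.1 Se as deposited and -0.50 after quantile normalization, and on 0 Se -0.29 and 0.15.

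The Sprouty genes encode inhibitors that are themselves induced by ERK. The main Spry2 probe set, 1436584_at, read 10.55, 10.69 and 10.41 in 0.1 Se lung, against 10.62, 10.78 and 10.55 in 0 Se lung, with overlap and a difference of -0.10. In liver it was blank on the 3 arrays of 0.1 Se and listed at 7.13, 6.89 and 6.89 on those of 0 Se, close to the lowest value in the table. In 0 Se mice, where both tissues were listed, Spry2 was 12.8-fold higher in lung than in liver (3.68 ± 0.14, limma adjusted p = 1.25e-09). Its dim second probe set, 1421656_at, read 7.55 and 7.56 in 0.1 Se lung with 1 blank, against 7.66, 7.64 and 6.96 in 0 Se lung, and was blank on every liver array.

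Spry4 signals lay near the lower end of the table, where arrays of 1 group spread widely. The probe set 1445669_at read 7.17, 7.27 and 7.50 in 0.1 Se lung, against 8.20, 7.23 and 7.19 in 0 Se lung, a difference of -0.23 with overlap. In liver it read 7.72 and 6.88 with 1 blank on 0.1 Se, against 8.06, 6.96 and 7.55 on 0 Se, a difference of -0.22 ± 0.35 (limma adjusted p = 0.937). Lung and liver differed by 0.01 on 0.1 Se and 0.02 on 0 Se (limma adjusted p = 0.98 and 0.965), with intervals from -0.59 to 0.61 and from -0.69 to 0.72. The other probe set, 1440867_at, was listed on 2 of 3 arrays of 0.1 Se lung and 0 of 3 of 0 Se lung, at values up to 7.26, and could not be compared between diets.

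Dusp6, the cytoplasmic phosphatase that switches off ERK, was higher in lung than in liver. Its probe set 1415834_at read 12.43, 12.66 and 12.44 in 0.1 Se lung, against 11.57, 11.27 and 11.44 in 0.1 Se liver, 2.12-fold higher in lung (1.08 ± 0.12, limma adjusted p = 1.02e-05). On the other diet it read 12.56, 12.14 and 12.36 in 0 Se lung, against 11.85, 11.86 and 11.38 in 0 Se liver, 1.57-fold higher in lung (0.65 ± 0.14, limma adjusted p = 0.00149). In both diets every lung array lay above every liver array. Over the alternatives the difference ranged from 0.86 to 1.68 on 0.1 Se and from 0.43 to 1.27 on 0 Se. The upper ends were those after quantile normalization. Dusp6 kept its direction and call in all 19 alternatives on each diet. Between the diets Dusp6 overlapped in lung, with a difference of 0.16 ± 0.12, opposite in sign to that of Phlda1. In liver 0.1 Se minus 0 Se was -0.27 ± 0.14 (95% interval -0.59 to 0.05, limma adjusted p = 0.798).

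**Figure D2:**
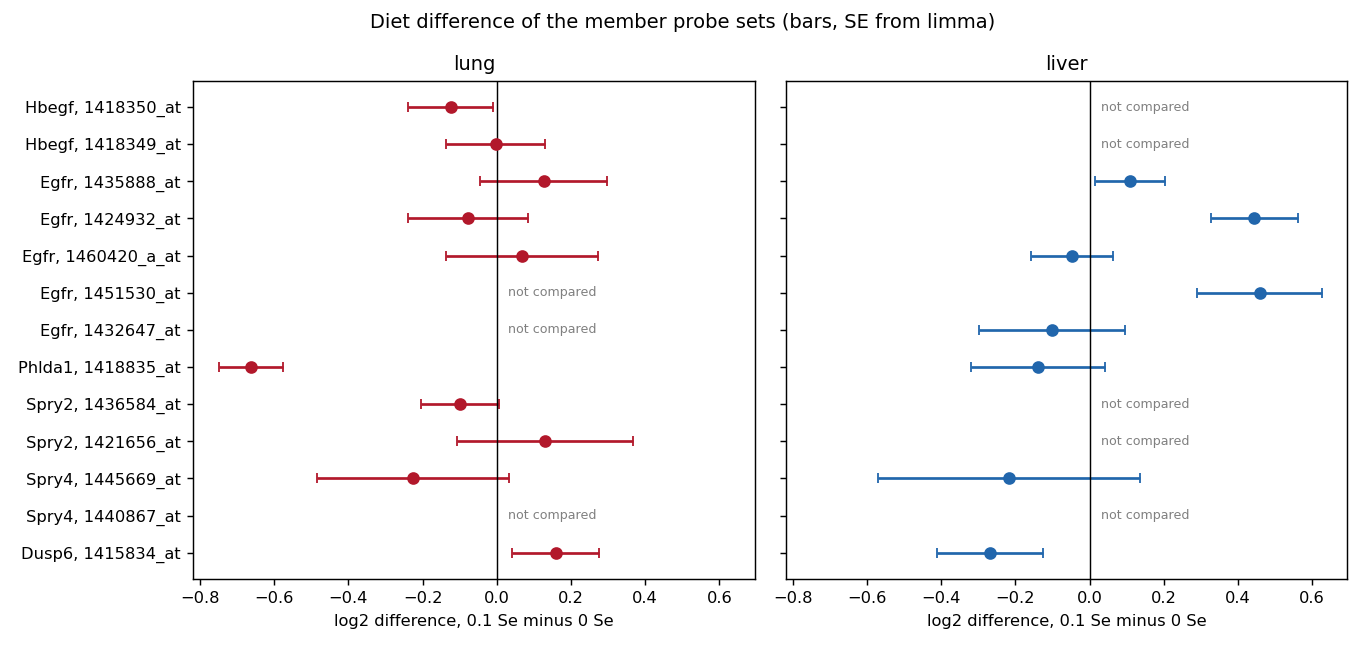
Log2 difference between diets (0.1 Se minus 0 Se, horizontal axis) of each probe set in lung (left) and liver (right), with bars for the SE from limma, and the words not compared where a diet had under 2 listed values. In lung the Phlda1 point stands alone at -0.66, and in liver the Egfr probe sets 1424932_at and 1451530_at lie highest, at 0.44 and 0.46.

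Counted over the probe sets, 10 could be compared between diets in lung, with 4 above 0 and a median difference of -0.04, beside a median of -0.01 over all probe sets tested there. In liver 8 could be compared, 0 passed the adjusted threshold, against 0.0121% of 16575 probe sets, and 2 passed at an unadjusted p of 0.05, both of them Egfr, against 6.65% of all. By the methods' t-test after Benjamini-Hochberg 0 passed. Between the tissues, 5 of 6 comparable probe sets passed on 0.1 Se, where 71.0% of all probe sets did, and 6 of 8 on 0 Se, where 74.4% did. On both diets most of the probe sets that passed read the single gene Egfr, so they do not count separate genes. The 5 on 0.1 Se include Phlda1, whose lung arrays chose it. These shares stand beside 42.2% called higher and 28.8% called lower in lung on 0.1 Se, and 43.4% and 31.0% on 0 Se, and they are near the background. Of the probe sets listed on all 6 arrays of a diet, 75.8% on 0.1 Se and 78.8% on 0 Se had lung and liver without overlap. Of those that passed, Dusp6 was higher in lung on both diets and Spry2 on 0 Se, whereas Egfr was lower in lung on both diets. Of all probe sets called on 0.1 Se, 59.4% were higher in lung as deposited, 70.2% after quantile normalization and 49.1% after median centring, and on 0 Se these shares were 58.4%, 69.3% and 48.0%. The directions of Egfr by its 3 leading probe sets, of Dusp6 and of Spry2 held under each of these scalings.

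**Figure D3:**
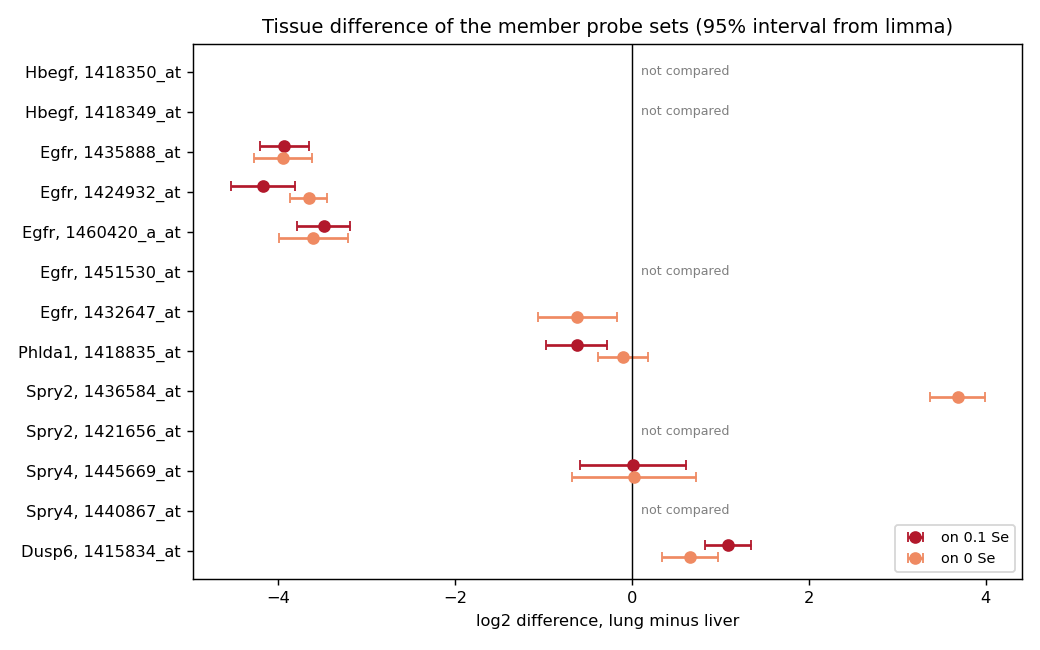
Log2 difference between tissues (lung minus liver, horizontal axis) of each probe set in mice on 0.1 Se (dark) and 0 Se (light), with 95% intervals from limma. Egfr lies far to the left at -3.49 to -4.18 for its 3 leading probe sets, Spry2 to the right at 3.68 on 0 Se, and Phlda1, shown as a description, at -0.63 and -0.10.

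Around the members, 94 further genes of the pathway were followed by role. In lung 68 of them could be tested, and 1 passed, Ptgs2, which was lower in 0.1 Se. The lists were chosen with earlier results of these data known, so lung calls among them are no independent test. Of the 68, 16 passed at an unadjusted p of 0.05, where 7.67% of all probe sets did, and the median difference was -0.06. The count past the adjusted threshold ranged from 0 to 3 over the alternatives. Among the ligands Tgfa differed by 0.05 ± 0.11 and Btc (betacellulin) by 0.26 ± 0.17 in lung, and among the receptors Erbb2 and Erbb3 by -0.08 each, none past the test (limma adjusted p from 0.801 to 0.951). Adam17, the protease that sheds amphiregulin and other ligands, differed by -0.04 ± 0.09 in lung (limma adjusted p = 0.948).

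Of 15 feedback inhibitors of the receptor and RAS tested in lung, 0 passed (1 at an unadjusted p of 0.05), 5 were above 0 and the median was -0.10. The 15 include the members Spry2 and Spry4, whose lung values are a description, so these counts are not of further genes alone. Spry1 read 10.36 to 10.49 in 0.1 Se lung and 10.60 to 11.19 in 0 Se lung, without overlap (-0.42 ± 0.14, limma adjusted p = 0.457), and 6.86% of all probe sets lay lower in 0.1 Se lung without overlap. Errfi1, which encodes the receptor inhibitor Mig6, differed by -0.18 ± 0.20, the RAS-ERK inhibitor Spred1 by -0.04 ± 0.08, its relative Spred2 by -0.15 ± 0.09 and Lrig1 by -0.22 ± 0.13 (limma adjusted p from 0.757 to 0.946). Phlda3, a relative of Phlda1, read 9.37 to 9.69 in 0.1 Se lung and 9.43 to 9.64 in 0 Se lung, a difference of 0.00 ± 0.12.

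Of 8 MAP kinase phosphatases, 0 passed in lung (3 at an unadjusted p of 0.05) and the median was 0.02. The 8 include the member Dusp6, whose lung value is a description. Dusp1, a nuclear phosphatase of the immediate early class, read 13.77, 13.56 and 13.37 in 0.1 Se lung, against 14.39, 13.77 and 14.46 in 0 Se lung (-0.64 ± 0.18, limma adjusted p = 0.371). Dusp4 differed by -0.09 ± 0.15, and Dusp5, listed on 2 arrays of each diet, by 0.66 ± 0.28 (limma adjusted p = 0.924 and 0.632).

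The genes that ERK induces had a median of -0.27 in lung, with 7 of 24 above 0 (47.9% of all probe sets were), 9 at an unadjusted p under 0.05 and 1 past the test. Of these 9, Myc (0.56 ± 0.22, limma adjusted p = 0.594) and the sphingosine kinase gene Sphk1 (0.47 ± 0.16, limma adjusted p = 0.466) were above 0 and the others (Ptgs2, Fos, Egr1, Junb, Ier2, Epha2 and Zfp36) below it. Ptgs2, the inducible cyclooxygenase, read 10.18, 9.86 and 9.83 in 0.1 Se lung, against 10.62, 10.81 and 10.89 in 0 Se lung, and was 1.76-fold lower (-0.82 ± 0.12, limma adjusted p = 0.0443). It kept this call in 8 of 19 alternatives, with adjusted p from 0.0104 to 0.653. As its list was chosen with earlier results of these data known, the call is no independent test. Fos read 12.83, 11.35 and 11.62 in 0.1 Se lung, against 13.57, 12.41 and 13.44 in 0 Se lung, with overlap (-1.21 ± 0.37, limma adjusted p = 0.425). Egr1 read 12.32, 11.38 and 11.32 in 0.1 Se lung, against 13.15, 12.17 and 13.02 in 0 Se lung, again with overlap (-1.11 ± 0.29, limma adjusted p = 0.308). For both immediate early transcription factors 0.1 Se lung replicate 1 was the highest of its group and 0 Se lung replicate 2 the lowest of its own. Without 0.1 Se lung replicate 1 both passed, at -1.66 for Fos and -1.43 for Egr1 (limma adjusted p = 0.043 and 0.0374). That fit called 75 probe sets in all, against 20 with every lung array. Without any other single lung array neither passed (limma adjusted p from 0.31 to 0.699 for Fos and from 0.184 to 0.598 for Egr1). Etv5, an ETS factor, differed by -0.07 ± 0.13, and Ccn1 by -0.37 ± 0.21.

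In liver 46 of the 94 genes could be tested, 0 passed by limma and the median difference was 0.00. At an unadjusted p of 0.05, 8 of the 46 passed, where 6.65% of all probe sets did. By the methods' t-test after Benjamini-Hochberg 0 passed. Egr1 read 8.16, 9.47 and 10.10 in 0.1 Se liver, against 7.37, 8.66 and 8.23 in 0 Se liver, so that its difference of 1.16 ± 0.45 (limma adjusted p = 0.694) had the sign opposite to that in lung, with overlap between the diets, and the difference between the tissues was not tested. Adam17 read 9.54, 9.43 and 9.43 in 0.1 Se liver, against 9.36, 8.94 and 8.78 in 0 Se liver, without overlap. The difference was 0.44 ± 0.17 (limma adjusted p = 0.684). Of 14759 probe sets listed on every liver array, 4.99% stood higher in 0.1 Se liver without overlap. Ccn1, read in liver by another probe set than in lung, was lower in 0.1 Se liver, the sign it had in lung. Its difference was -0.86 ± 0.21 (limma adjusted p = 0.486, unadjusted p = 0.00201). Of the 14 genes induced by ERK tested in liver, 9 were above 0 and the median was 0.09. Erbb3 differed by 0.29 ± 0.17, Errfi1 by 0.14 ± 0.21, Dusp1 by 0.15 ± 0.23 and Tgfa by -0.22 ± 0.20 (limma adjusted p from 0.825 to 0.937).

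**Figure D4:**
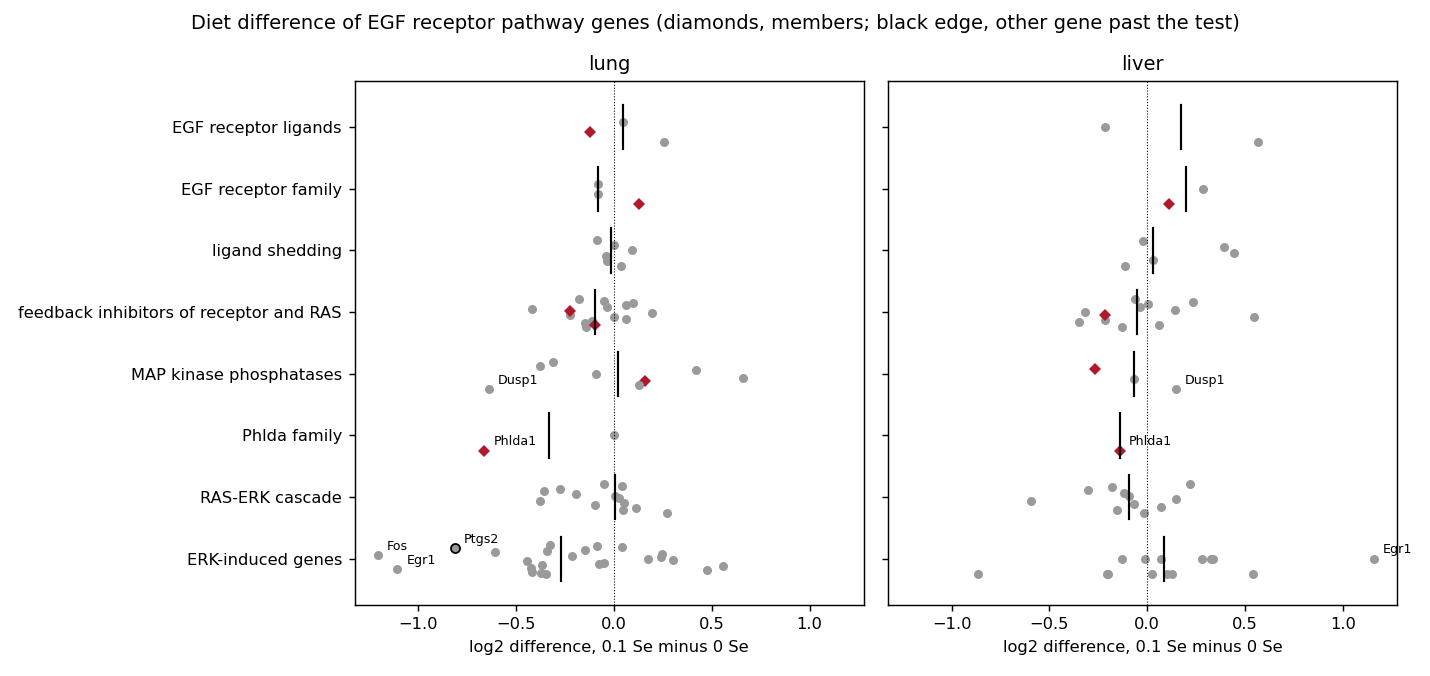
Log2 difference between diets (0.1 Se minus 0 Se, horizontal axis) of the pathway genes by list, in lung (left) and liver (right), with 1 point a gene, diamonds for Hbegf, Egfr, Phlda1, Spry2, Spry4 and Dusp6, a black edge for another gene past the adjusted threshold, and a bar at the list median. In lung the genes induced by ERK have a median of -0.27 with Fos, Egr1 and Ptgs2 at the left, and in liver Egr1 lies at the right, at 1.16.

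Between the tissues the other inhibitors did not share 1 direction. On 0.1 Se, Spry1 was higher in lung than in liver by 2.59 ± 0.16, Spred1 by 2.13 ± 0.15 and Dusp1 by 2.82 ± 0.18 on the log2 scale (limma adjusted p = 3.41e-07, 4.51e-07 and 1.71e-07). Errfi1 was lower in lung by a difference of -2.05 ± 0.16 and Lrig1 by one of -1.07 ± 0.21, as was the receptor Erbb3 with -1.78 ± 0.15 (limma adjusted p = 7.73e-07, 0.00103 and 1.74e-06). On 0 Se each of these 6 genes passed in the same direction, and all 6 kept direction and call in every alternative run, on both diets. The Lrig1 probe set used here ends in _s_at and can bind related transcripts, and its value is not shared by the Lrig1 probe set used for lung, which averaged 8.92 in 0.1 Se lung against 9.16 in 0.1 Se liver, and 9.14 in 0 Se lung against 9.39 in 0 Se liver.

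By a rule set on likeness, the probe sets nearest to Phlda1 over the 6 lung arrays were those of Pmepa1 (Pearson r = 0.99), Polg2 (0.98), Cc2d2a (0.98), Me1 (0.97) and Sephs2 (0.97), of 7323 compared, 18 of which exceeded 0.95. Their own lung diet differences were -0.44, -0.43, -0.36, -0.61 and -0.48. The 6 arrays share the split between diets, and r is given as a description. Over the same arrays the r of the other members with Phlda1 lay between -0.40 for Dusp6 and 0.44 for Hbegf (1418350_at).

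Other measures were also compared between the diets in lung. The summed signal of 6 ciliated cell markers was 5272 to 7349 in 0.1 Se lung and 8648 to 9411 in 0 Se lung, with 6 of 6 below 0, 5 at an unadjusted p under 0.05 and 0 past the adjusted threshold in limma. The 4 club and airway secretory markers tested were all below 0 (median -0.42), 3 at an unadjusted p under 0.05 (Scgb3a1 -3.06 ± 0.99, Scgb3a2 -0.43 ± 0.15 and Cyp2f2 -0.41 ± 0.15) and 0 past the adjusted threshold in limma, with sums of 89946 to 139386 in 0.1 Se lung and 122761 to 173627 in 0 Se lung that overlapped. The summed neutrophil markers were 4154 to 16980 in 0.1 Se lung and 1171 to 2956 in 0 Se lung, with Cxcr2 blank in 0 Se lung. The 3 tested were above 0, with 3 at an unadjusted p under 0.05 and 0 past the adjusted threshold in limma. The T and NK cell markers were 2847 to 4891 in 0.1 Se lung and 1530 to 2378 in 0 Se lung, with Cd8a blank in both. Again the 3 tested were above 0, with 2 at an unadjusted p under 0.05 and 0 past the adjusted threshold. Fibroblast markers were 43067 to 45841 in 0.1 Se lung and 46156 to 51613 in 0 Se lung. By gene, the 6 ranged from -0.26 to 0.20 (median -0.08), with 1 at an unadjusted p under 0.05 and 0 past the adjusted threshold in limma. The keratin and epithelial markers listed as those of cholangiocytes were 9749 to 10526 in 0.1 Se lung and 10646 to 11972 in 0 Se lung, with Sox9 blank in both. Of the 3 tested, 0 were above 0, 1 had an unadjusted p under 0.05 and 0 passed the adjusted threshold. Among single probe sets, 6.86% lay lower in 0.1 Se lung without overlap. The part of all these markers in the Phlda1 and Ptgs2 values was not tested. Cardiac muscle markers spread from 3753 to 15590 in 0.1 Se lung and from 3470 to 26720 in 0 Se lung. The 3′ minus 5′ log2 signal of the Gapdh control was -0.02 to 0.15 in 0.1 Se lung and -0.01 to 0.30 in 0 Se lung, with overlap. That of the beta-actin control was larger, 0.961 to 1.524 in 0.1 Se lung and 1.205 to 1.69 in 0 Se lung, also with overlap. In liver the Gapdh value was -0.305 to -0.161 on 0.1 Se and -0.407 to -0.092 on 0 Se, below every lung array. Its part in the tissue differences was not tested.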

How the data were processed

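The authors made MAS5 signals with each array scaled alone, excluded absent calls and deposited the log2 of these signals. R 2.15.2 and affy 1.36.0 stand in the submitters' processing notes. RNA (Trizol) was labelled by a 3′ IVT biotin protocol. The 12 arrays (4 groups of 3) entered as deposited; columns without a sample numbered 0. The table has 112116 blank cells. Of 25174 annotated probe sets, 24514 named a single gene, of which 99.7% matched RefSeq by Entrez number.

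The 58 control probe sets were dropped. A probe set needed at least 2 values in each group. limma 3.58.1 (R 4.3.3) was fitted by lmFit, then eBayes with trend, with Benjamini-Hochberg adjustment over the whole table and a threshold of 0.05. Precision is limited by the number of arrays: with 3 against 3, the smallest two-sided exact p is 0.1. The code was tested on simulated data. Named genes were every probe set of the 8 members, 20 pathway genes taken by role, any other pathway gene past the threshold in a diet comparison, and the 5 genes nearest to Phlda1 among probe sets listed on the 6 lung arrays with an SD of at least 0.2. Pathway genes and markers stood by their probe set of highest mean signal. Members and lists were chosen with earlier results of these data known. Alternatives changed the filter, the blanks, the scaling, a pseudocount of 32, the variance model, array weights, a block on replicate number, the arrays fitted, the test and each array in turn.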

Additional observations from a re-analysis of the deposited data

How the results depend on the processing

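The count of members past the threshold in lung was 1 and became 0 with blanks at the lowest value, with no trend, with the 12 arrays in one fit, and by the methods' t-test after Benjamini-Hochberg, and leaving out each array gave 0 to 1 (0 without 0.1 Se lung replicate 2 or 3 or 0 Se lung replicate 2 or 3). This count rests on the values that chose Phlda1 and is a description. In liver the count of 0 became 2 only by the methods' t-test at its unadjusted threshold, and each left-out array gave 0. For lung against liver, 5 probe sets on 0.1 Se and 6 on 0 Se became 10 and 10 with blanks at the lowest value, and leaving out arrays gave 5 to 5 and 5 to 7. Phlda1 between the tissues on 0 Se reversed to 0.59 after quantile normalization, was -0.33 after median centring and -0.27 without 0 Se liver replicate 1, all given with no test; the cause was not tested. Egfr 1432647_at missed the threshold without 0 Se liver replicate 2 or 3 (limma adjusted p = 0.0566 and 0.0501). It also missed it by the methods' t-test after Benjamini-Hochberg (t-test adjusted p = 0.0646). The liver Egfr difference of 0.11 by the brightest probe set was 0.44 by 1424932_at. Uncalled differences near 0 in lung changed sign under some alternatives (Hbegf, Egfr, Spry2 and Spry4).

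Same-numbered arrays had r from -0.19 to 0.10 over the 4 comparisons, and the numbers were not taken as pairs. Between lung and liver on 0 Se the best match of each replicate was its own number (r = 0.099, 0.057 and 0.1). On 0.1 Se this held for replicate 2 only (r = 0.02). These values do not settle whether the tissues share mice. In the fit with a replicate block the counts of members were 1, 0, 5 and 6, as without it, while all lung calls numbered 53 against 20 and liver calls 0 against 2. With the block, the lung Fos and Egr1 differences passed (limma adjusted p = 0.0335 and 0.0394) and that of Ptgs2 did not (0.0513). Over the other limma alternatives all lung calls ranged from 0 to 75, and the methods' t-test gave 1412 at its unadjusted threshold and 0 after adjustment. Signals near 6.64 limit Spry4, Spry2 in liver and the dim Egfr probe set, and a blank sets no level there.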
